A study of Mus musculus with 30 samples.

Results

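The genes described here are those of antigen presentation by class I and class II molecules of the major histocompatibility complex (MHC), which show peptides to T cells, measured in the left ventricle of mice with and without the genotype labelled HCM. All probe sets whose single gene symbol in the platform annotation was H2-Aa, H2-Ab1, H2-Eb1, Cd74, H2-DMa, H2-D1, H2-K1, B2m or Tap1 were taken, which gave 9 genes of 8251 with a symbol, read by 15 of the 12422 probe sets tested. Of the 15, 6 belong to 5 genes of the class II pathway and 9 to 4 genes of the class I pathway. No filter on low values was applied, so all 15 were tested.

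Left ventricles of C57BL/6 mice were collected at 2 months of age, and each of the 30 Affymetrix MG_U74Av2 arrays carried RNA pooled from 2 animals. The mice carried the HCM genotype or were wild type, were fed a casein-based or a soy-based diet, and were female or male. The HCM groups held 4 arrays of females on casein, 4 of males on casein, 3 of females on soy and 3 of males on soy. The wild-type groups held 4 arrays each of females on casein, males on casein, females on soy and males on soy. HCM usually stands for hypertrophic cardiomyopathy; the labels do not spell it out and name no mutation, promoter or line, so nothing more can be said here of what limits the mice as a model. Expression is given as log2 values throughout, so a difference of 1 means 2-fold. Arrays hold no read depth, and the number of arrays limits the precision. The samples are pools of whole ventricle, so p-values measure the spread between pooled samples, and fewer cells of a type and less RNA per cell cannot be told apart.

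MHC class I molecules pair a heavy chain, such as the H2-K1 or H2-D1 product, with beta-2 microglobulin (B2m) and carry peptides made in the cytosol and pumped into the endoplasmic reticulum by the transporter of Tap1 and Tap2; nearly all nucleated cells make them. Class II molecules (H2-Aa with H2-Ab1, and the beta chain H2-Eb1) are assembled with the invariant chain Cd74 and loaded in endosomes with the help of H2-DMa, mostly in macrophages, dendritic cells and B cells. Interferon gamma raises transcription of both pathways, and in a healthy heart most class II RNA comes from resident macrophages and dendritic cells.

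Of the 9 genes, 7 lie on mouse chromosome 17, in the order H2-K1, H2-DMa, Tap1, H2-Ab1, H2-Aa, H2-Eb1 and H2-D1; B2m lies on chromosome 2 and Cd74 on another chromosome. Promoter windows of RefSeq (build GRCm38.p6) were matched for 7 of the 9 genes, with 9 start sites. The 250 bases before the annotated start are shown for 2 class I and 2 class II genes, because all 4 hold the Y box core and they differ in their matches to the other patterns searched. Capitals mark every match, on either strand, to the Y box core ATTGG, the X box core AGCAAC, the interferon response element of the interferon-stimulated type and the kappa B site; no marked match overlaps another. Each is given 5′ to 3′ on the gene's strand. The B2m window lies at chr2:122147437-122147686 on the plus strand, that of H2-D1 at chr17:35262844-35263093 on the plus strand, that of H2-Aa at chr17:34287824-34288073 on the minus strand, and that of H2-Eb1 at chr17:34305617-34305866 on the plus strand.
B2m: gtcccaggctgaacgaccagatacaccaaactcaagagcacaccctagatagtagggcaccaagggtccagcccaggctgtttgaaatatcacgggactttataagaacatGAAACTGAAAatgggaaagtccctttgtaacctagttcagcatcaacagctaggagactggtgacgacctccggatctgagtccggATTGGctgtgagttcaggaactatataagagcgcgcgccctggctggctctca
H2-D1: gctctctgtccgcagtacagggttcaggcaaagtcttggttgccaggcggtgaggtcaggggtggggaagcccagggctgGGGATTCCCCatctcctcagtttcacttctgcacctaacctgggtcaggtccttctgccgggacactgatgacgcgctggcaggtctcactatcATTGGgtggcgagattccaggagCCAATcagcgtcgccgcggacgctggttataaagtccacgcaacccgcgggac
H2-Aa: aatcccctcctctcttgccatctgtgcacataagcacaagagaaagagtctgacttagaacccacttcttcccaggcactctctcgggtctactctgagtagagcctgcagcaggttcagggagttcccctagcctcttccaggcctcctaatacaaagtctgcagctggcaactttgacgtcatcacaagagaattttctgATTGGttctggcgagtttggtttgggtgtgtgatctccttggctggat
H2-Eb1: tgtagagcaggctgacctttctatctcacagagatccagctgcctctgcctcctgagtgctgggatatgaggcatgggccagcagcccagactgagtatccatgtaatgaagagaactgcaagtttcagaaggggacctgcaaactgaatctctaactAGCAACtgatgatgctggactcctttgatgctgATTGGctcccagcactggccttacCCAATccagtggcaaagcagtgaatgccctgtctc

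The Y box core, which NF-Y binds, was found in 8 of the 9 member windows, against 33.8% of all 32851 promoter windows of that length. Both H2-K1 windows overlap each other and were counted apart. The only pattern searched for as the interferon response element was found in 1 member window, that of B2m, at positions -139 to -130 from the start, against 2.98% of all windows. The X box core was found in 1, that of H2-Eb1, against 12.2%, and the GAS letters TTCNNNGAA in none, against 7.02%. The kappa B site was searched for only after the sequences had been seen. It stood in the H2-D1 window and in both H2-K1 windows (3 of 9), against 0.0852% of all windows. The overlapping H2-K1 windows hold the same site, and it lies within a run of 47 bases that H2-K1 and H2-D1 share letter for letter. The 3 matches are thus not independent of each other. A match is a description of these letters and not evidence of binding. Nor does a missing match show that an element is absent. Variants of the interferon response element were not searched for, so the H2-D1 and H2-K1 windows cannot be said to lack one.

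Where a gene has several probe sets, letters name them in falling order of mean level: H2-K1 and H2-D1 have (a), (b) and (c), and H2-DMa and Tap1 have (a) and (b). Several of the class I probe sets cannot be tied to a single gene. Of the 15 probe sets, 6 carry the suffix f, which Affymetrix gave to probes that match similar members of a family; these are 5 of the 6 probe sets of H2-D1 and H2-K1 and 1 of H2-DMa. Values of H2-D1 and H2-K1 are therefore uncertain as to which of the near-identical heavy chain genes gave the signal. A further 3 probe sets list a member together with other genes and are not named here.

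Before the comparisons, 2 properties of the arrays bear on them. First, diet and genotype coincide with sets of arrays that differ in their added control RNAs: Dap, a control transcript put into the labelling reaction, read 7.19 to 8.07 on the 8 casein HCM arrays, against 4.03 to 4.70 on the other 22. The casein wild-type arrays fall into replicates 1 and 2 of both sexes, with a BioD minus BioC control difference of 1.38 to 1.74, and replicates 3 and 4, with 0.64 to 0.80. A difference between genotypes or diets is thus also a difference between array sets, and the 2 cannot be told apart, except that casein wild type holds both of its own sets. Second, female soy wild-type replicate 2 stood apart in these genes: 12 of the 15 member probe sets were above all 3 other arrays of its group, against 21.0% of all probe sets. Male soy wild-type replicate 2 stood apart over the whole array, with 41.5% of all probe sets above and 42.1% below its group, and 8 of 15 members below. Counts of members and of lists on soy are given with and without these arrays.

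HCM on casein compared with wild type on casein answers how the genotype went with these genes under 1 diet. Of the 15 member probe sets, 8 were higher and 2 lower in HCM at an adjusted p under 0.05 (limma, Benjamini-Hochberg over all probe sets), where 49.0% of all probe sets passed, 25.0% as higher and 24.0% as lower. The median difference of the members was 0.39, against -0.00 over all probe sets. The higher ones were B2m, both brighter probe sets each of H2-K1 and H2-D1, 1 probe set of Tap1, H2-Eb1 and H2-Ab1. Cd74, H2-Aa and H2-DMa did not pass.

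B2m, the light chain of every classical class I molecule, showed the largest member difference. In HCM hearts on casein its values were 11.82, 11.75, 12.10 and 11.95 in females and 11.53, 11.48, 11.41 and 11.58 in males. In wild-type hearts on casein they were 10.66, 10.60, 10.64 and 10.70 in females and 10.83, 10.25, 10.76 and 10.76 in males. All 8 HCM arrays lay above all 8 wild-type arrays on this diet. How many of all probe sets leave groups without overlap was not counted, here or in the comparisons below. The difference was 1.05 ± 0.13 (SE), a 2.07-fold change, with an adjusted p of 1.04e-07 in limma; it was 1.25 ± 0.18 in females and 0.85 ± 0.18 in males.

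Over the 8 groups B2m averaged 11.90 ± 0.15 (SD, n = 4) in female HCM on casein and 11.50 ± 0.07 (n = 4) in male HCM on casein, the only group means above 11. Next came female HCM on soy at 10.97 ± 0.15 (n = 3), female wild type on soy at 10.95 ± 0.50 (n = 4) and male HCM on soy at 10.77 ± 0.28 (n = 3). Male and female wild type on casein stood at 10.65 ± 0.27 and 10.65 ± 0.04, and male wild type on soy at 10.28 ± 0.36 (n = 4 each). From the third to the seventh place neighbouring means differed by less than the SD of the wider of the pair, so these 5 groups have no settled order. Set against casein wild-type replicates 1 and 2, the mean of the 8 casein HCM arrays was higher by 1.12, and against replicates 3 and 4 by 0.99.

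**Figure D1:**
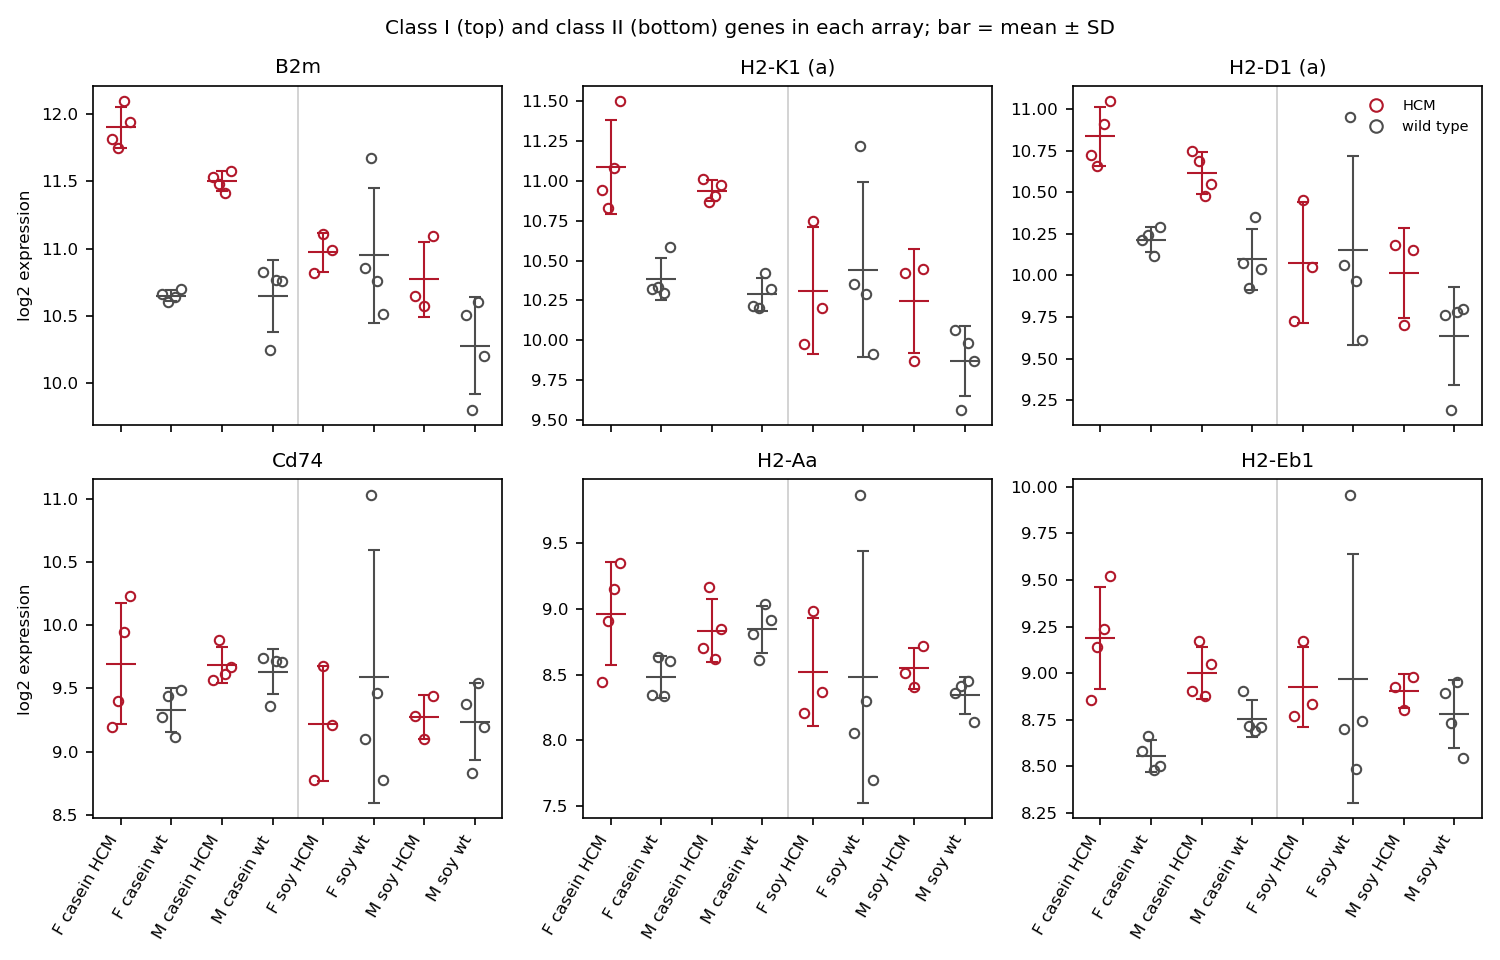
Log2 expression of 3 class I genes (top row) and 3 class II genes (bottom row) in each array, with 1 point per array, the horizontal bar at the group mean and whiskers of 1 SD; F is female, M is male, and HCM groups stand left of their wild-type groups. The casein HCM points of B2m, from 11.41 to 12.10, lie above all casein wild-type points, while 1 female soy wild-type array stands far above its group in every panel.

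The heavy chain H2-K1 (a) ranged from 10.83 to 11.50 with a median of 10.96 in 8 HCM arrays on casein, and from 10.20 to 10.58 with a median of 10.32 in 8 wild-type arrays on casein. The difference was 0.68 ± 0.13 (SE, adjusted p 0.000163 by limma). Probe set b spanned 8.38 to 8.61 in HCM and 7.67 to 8.03 in wild type, with a difference of 0.66 ± 0.11 (adjusted p 2.4e-05 by limma). For both, the difference within each sex was close to the joint one: 0.70 in females and 0.65 in males for probe set a, and 0.72 and 0.61 for probe set b.

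H2-D1, the second classical heavy chain of this strain, had 3 probe sets. At probe set a the HCM arrays on casein spanned 10.48 to 11.05 with a median of 10.71, and the wild-type arrays 9.93 to 10.35 with a median of 10.16. At probe set b they spanned 9.86 to 10.50 in HCM and 9.37 to 9.72 in wild type. The differences were 0.57 ± 0.13 (adjusted p 0.00091) and 0.53 ± 0.13 (adjusted p 0.00112 by limma). Probe set c had 5.37 to 5.88 in HCM and 5.26 to 5.63 in wild type; these overlapped, and its difference of 0.19 ± 0.12 did not pass (adjusted p 0.191).

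Tap1, a subunit of the peptide transporter, gave opposite results at its 2 probe sets. At probe set a it spanned 6.52 to 7.10 in HCM on casein and 5.96 to 6.49 in wild type on casein. The difference there was 0.46 ± 0.12 (SE, adjusted p 0.00304 by limma). At probe set b it spanned 5.16 to 5.34 in HCM and 5.67 to 6.06 in wild type, a difference of -0.60 ± 0.08 (adjusted p 5.83e-07). The suffix r of the second marks a set made with relaxed probe selection rules.

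H2-K1 also had probe sets of opposite sign: its probe set c had 5.60 to 5.88 in HCM on casein and 5.91 to 6.24 in wild type, a difference of -0.26 ± 0.06 (SE; adjusted p 0.00041). At both discordant probe sets the 8 casein HCM arrays lay below all other 22 arrays, which spanned 5.91 to 6.75 for H2-K1 (c) and 5.64 to 6.28 for Tap1 (b). The share of all probe sets that set these 8 arrays apart in this way was not counted. Averaged over all arrays these 2 read 6.09 and 5.73, below the array medians of 6.11 to 6.23. In wild type on soy, however, H2-K1 (c) averaged 6.48 in females and 6.35 in males, above those medians. Tap1 (a), which went the other way, averaged 6.45 over all arrays, little above them. Direction for H2-K1 and Tap1 thus depends on the probe set, and which of them follows the gene's RNA was not tested.

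H2-Eb1, a class II beta chain, spanned 8.86 to 9.52 with a median of 9.09 in HCM on casein and 8.48 to 8.91 with a median of 8.68 in wild type on casein. The ranges overlapped only at their ends, and the difference was 0.44 ± 0.13 (SE; adjusted p 0.00787). H2-Ab1, the beta chain that pairs with H2-Aa, spanned 7.27 to 8.27 in HCM and 7.04 to 7.63 in wild type. These overlapped widely, with a difference of 0.39 ± 0.14 (adjusted p 0.0283 by limma).

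The H2-Ab1 result was the least secure of the 10. It missed the threshold without male casein HCM replicate 2 (0.36, adjusted p 0.0532), without female casein HCM replicate 4 (0.30, adjusted p 0.0828) and without female casein wild-type replicate 3 (0.37, adjusted p 0.0501). With a random block for array set, H2-Ab1, H2-Eb1 and Tap1 (a) all missed it, with adjusted p of 0.196, 0.106 and 0.0655.

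Cd74, the invariant chain that chaperones new class II molecules, had 9.20, 9.40, 9.95 and 10.24 in female and 9.57, 9.89, 9.62 and 9.67 in male HCM hearts on casein. Wild-type hearts on casein had 9.27, 9.44, 9.11 and 9.49 in females and 9.74, 9.36, 9.72 and 9.71 in males. The groups overlapped, with 3 of 8 HCM arrays above the highest wild-type array, and the difference of 0.21 ± 0.21 (SE) had a 95% interval of -0.21 to 0.63.

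H2-Aa, the alpha chain that pairs with H2-Ab1, had 8.44 to 9.35 in HCM on casein and 8.33 to 9.04 in wild type, a difference of 0.24 ± 0.19 (adjusted p 0.316). H2-DMa, a chain of the DM complex that swaps the invariant chain fragment for peptide, differed by -0.12 ± 0.11 at probe set a and by 0.04 ± 0.08 at probe set b, neither past the threshold.

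Group means of the class II genes stood closer together. Cd74 averaged 9.70 ± 0.48 (SD) in female and 9.69 ± 0.14 in male HCM on casein, 9.22 ± 0.45 in female and 9.27 ± 0.17 in male HCM on soy, 9.33 ± 0.17 in female and 9.63 ± 0.18 in male wild type on casein, and 9.59 ± 1.0 in female and 9.24 ± 0.30 in male wild type on soy. H2-Aa ran from 8.96 ± 0.39 in female HCM on casein to 8.34 ± 0.14 in male wild type on soy. In the order of Cd74 every neighbouring pair of groups differed by less than the wider SD of the pair. For H2-Aa the same held apart from 1 step, between male HCM on casein at 8.84 ± 0.24 and male HCM on soy at 8.55 ± 0.16.

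The heavy chains kept the order of B2m at its top. H2-K1 (a) averaged 11.09 ± 0.29 (SD) in female and 10.94 ± 0.07 in male HCM on casein, and H2-D1 (a) 10.84 ± 0.18 and 10.62 ± 0.13. The lowest group for both was male wild type on soy, at 9.87 ± 0.22 and 9.63 ± 0.29. The other 5 groups lay between 10.25 and 10.45 for H2-K1 and between 10.01 and 10.22 for H2-D1, each step within the wider SD.

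**Figure D2:**
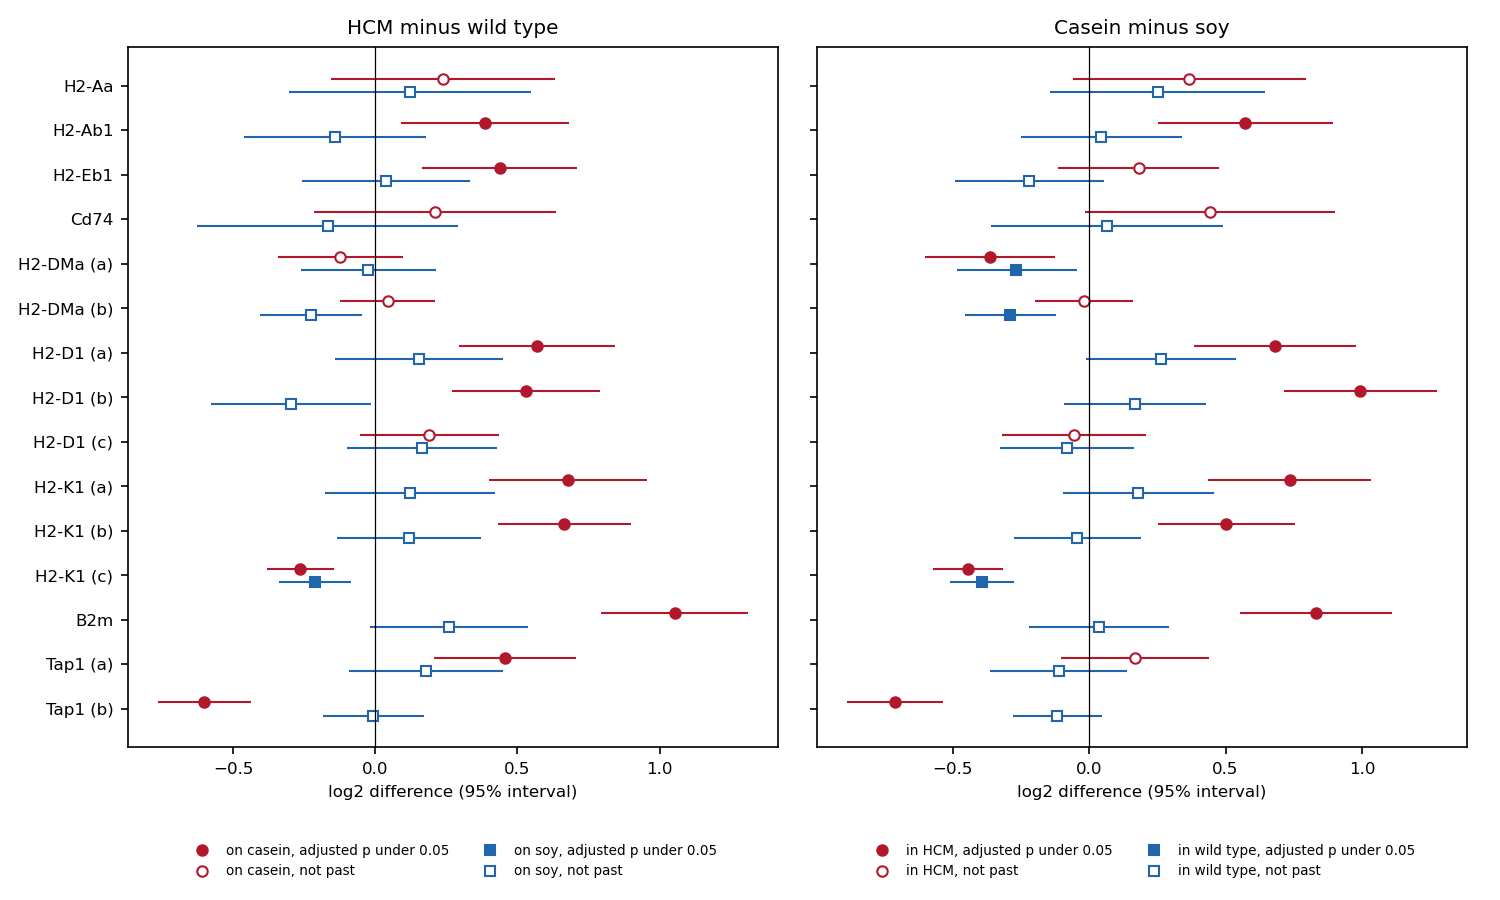
Log2 difference of each member probe set with its 95% interval, HCM minus wild type on each diet (left) and casein minus soy in each genotype (right); filled symbols have an adjusted p under 0.05. On casein B2m lies at 1.05 and 8 of 15 are filled above 0, while on soy 1 probe set, H2-K1 (c) at -0.21, is filled.

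HCM on soy compared with wild type on soy gave 1 member probe set past the threshold, where 24.7% of all probe sets passed (12.3% in each direction). It was H2-K1 (c), which spanned 6.10 to 6.34 in HCM and 6.2 to 6.75 in wild type, a difference of -0.21 ± 0.06 (SE; adjusted p 0.0141). The median member difference on soy was 0.04, against -0.01 over all probe sets. At an unadjusted p under 0.05, 3 member probe sets stood out.

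B2m had 10.82, 11.11 and 10.99 in female and 10.65, 10.57 and 11.09 in male HCM hearts on soy. Wild-type hearts on soy had 10.86, 11.67, 10.76 and 10.51 in females and 10.51, 9.80, 10.60 and 10.20 in males. The wild-type arrays surrounded the HCM arrays, and the difference was 0.26 ± 0.14 (SE; adjusted p 0.163). Without female soy wild-type replicate 2, the highest of them, the difference became 0.38 and passed (adjusted p 0.0159).

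Without male soy wild-type replicate 2 alone the count on soy stayed at 1, where 23.5% of all probe sets passed. Leaving out female soy wild-type replicate 2 alone changed it from 1 to 4 of 15, where 22.7% passed. Besides B2m, Tap1 (a) (0.31, adjusted p 0.0188) and H2-D1 (c) (0.30, adjusted p 0.0149) then passed as higher in HCM. With male soy wild-type replicate 2 left out too, a choice made after the data had been seen, these 3 differences were 0.30, 0.26 and 0.29 and still passed. Cd74 had 8.77 to 9.68 in HCM and 8.78 to 11.03 in wild type on soy, and H2-Aa 8.21 to 8.98 in HCM and 7.70 to 9.87 in wild type; neither passed with or without those arrays.

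Whether the genotype difference itself depended on the diet was tested as an interaction, the HCM difference on casein minus that on soy. It passed for 6 of 15 member probe sets, 5 positive and 1 negative, where 45.2% of all probe sets passed (23.9% positive, 21.3% negative). The positive ones were H2-D1 (b) at 0.83 ± 0.19 (SE), B2m at 0.79 ± 0.18, H2-K1 at 0.55 ± 0.20 (probe set a) and 0.55 ± 0.17 (probe set b), and H2-Ab1 at 0.53 ± 0.21. Tap1 (b) was negative at -0.60 ± 0.12.

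B2m and H2-D1 (b) had the smallest adjusted p among the positive ones (0.000987 and 0.000739), and both kept an adjusted p under 0.05 under every alternative that held them. None of these alternatives can separate diet and genotype from the casein HCM array set, which coincides with them. With a random block for array set B2m was near the threshold (adjusted p 0.0463 in limma), and H2-K1 (a), H2-K1 (b) and H2-Ab1 missed it (adjusted p 0.204, 0.133 and 0.265). H2-Ab1 (adjusted p 0.0437) missed the threshold when any of many single arrays was left out, for example at 0.37 without female soy wild-type replicate 2. H2-K1 (a) (adjusted p 0.0246) missed it without female soy HCM replicate 1 (0.47, adjusted p 0.0615) or male soy HCM replicate 2 (0.46, adjusted p 0.0648). The members' share was no larger than that of all probe sets.

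The diets were compared within each genotype. In HCM hearts, casein against soy gave 9 of 15 past the threshold, 6 higher and 3 lower on casein, where 61.1% of all probe sets passed (29.8% higher, 31.3% lower). H2-D1 (b) had 9.86 to 10.50 on casein and 8.68 to 9.52 on soy, a difference of 0.99 ± 0.14 (SE; adjusted p 5.19e-07). B2m had 11.41 to 12.10 on casein and 10.57 to 11.11 on soy, a difference of 0.83 ± 0.14 (adjusted p 6.96e-06). In both the diets did not overlap, and the share of all probe sets that do the same was not counted.

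H2-K1 (0.73 at probe set a and 0.50 at probe set b), H2-D1 (a) (0.68) and H2-Ab1 (0.57) were the other 4 that were higher on casein in HCM. Tap1 (b) (-0.71), H2-K1 (c) (-0.44) and H2-DMa (a) (-0.36) were lower. Cd74 differed by 0.44 ± 0.22 (SE; adjusted p 0.0874) and H2-Aa by 0.37 ± 0.21 (adjusted p 0.127). This comparison and HCM against wild type on casein share the 8 casein HCM arrays, so they are not independent of each other.

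In wild-type hearts, casein against soy gave 3 of 15 past the threshold, all lower on casein, where 46.0% of all probe sets passed (20.3% higher, 25.6% lower). They were H2-K1 (c) (-0.39 ± 0.06, SE), H2-DMa (b) (-0.29 ± 0.08) and H2-DMa (a) (-0.27 ± 0.11, adjusted p 0.0438). H2-DMa (b) had 7.52 to 7.78 on casein and 7.61 to 8.35 on soy, with male soy wild-type replicate 2 the highest at 8.35. B2m had 10.25 to 10.83 on casein and 9.80 to 11.67 on soy, a difference of 0.04 ± 0.13 with a 95% interval of -0.22 to 0.29.

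Without female soy wild-type replicate 2 the count in wild type became 5, where 44.5% of all probe sets passed. By limma, H2-Aa (0.48, adjusted p 0.00249), H2-D1 (a) (0.40, adjusted p 0.00354) and H2-K1 (a) (0.31, adjusted p 0.0262) were then higher on casein. H2-DMa (a) then missed the threshold (-0.28, adjusted p 0.0508). Without male soy wild-type replicate 2 the count was 2, where 50.9% of all probe sets passed, and H2-DMa (a) was -0.15 (adjusted p 0.111 by limma). With both soy wild-type arrays numbered 2 left out, the count was 4, where 49.2% of all probe sets passed. H2-DMa (a) was then -0.16 (adjusted p 0.111 by limma) and H2-DMa (b) -0.15 (adjusted p 0.0281).

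Averaged over the strata, HCM against wild type gave 7 of 15 (5 higher, 2 lower; 32.8% of all probe sets, 17.2% higher and 15.6% lower) and casein against soy 10 of 15 (6 higher, 4 lower; 62.3%, 29.0% higher and 33.3% lower). Without the 8 casein HCM arrays the first comparison was on soy alone and the second in wild type alone. Their counts were then 1, where 20.1% of all probe sets passed, and 2, where 43.3% passed. B2m was higher by 0.66 ± 0.09 (SE) in HCM over both diets. The genotype count became 11 with both soy wild-type arrays numbered 2 left out, where 34.4% of all probe sets passed. Without female soy wild-type replicate 2 alone it was also 11, adding H2-Eb1 (0.32), H2-Aa (0.30), H2-D1 (c) (0.25) and H2-Ab1 (0.20). Over diets, Cd74 differed by 0.25 ± 0.15 and H2-Aa by 0.31 ± 0.14, neither past; without that array they were higher on casein by 0.38 (adjusted p 0.00264) and 0.42 (adjusted p 0.000197).

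Females against males gave no member probe set past the threshold, where 0.233% of all probe sets passed (29 by limma); at an unadjusted p under 0.05 there were 4 member probe sets and 1127 in all. B2m averaged 11.12 in females and 10.80 in males, a difference of 0.32 ± 0.09 (SE; unadjusted p 0.00186, adjusted p 0.224). In HCM hearts on casein the females read 11.75 to 12.10 and the males 11.41 to 11.58. The difference of 0.40 ± 0.18 there did not pass (adjusted p 0.327 by limma), and in wild-type hearts on casein the difference was -0.00 ± 0.18. On soy it was 0.20 ± 0.20 in HCM. In wild type on soy, where the females include replicate 2, it was 0.67 ± 0.18 and did not pass (adjusted p 0.231 by limma). Without that array the difference over all strata was 0.26 (adjusted p 0.252). H2-D1 (a) (0.23), H2-K1 (a) (0.22) and H2-K1 (c) (0.11) were the other 3 with an unadjusted p under 0.05.

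The interactions of genotype with sex and of diet with sex gave no member probe set by limma, adjusted or unadjusted, where 0.00% of all probe sets passed in each; over all probe sets 503 and 1755 had an unadjusted p under 0.05. For B2m these interactions were -0.04 ± 0.18 and -0.24 ± 0.18 (SE).

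Female soy wild-type replicate 2 stood above its 3 group mates by a median of 1.03 over the 15 member probe sets, against -0.02 over all probe sets. Cd74 read 11.03 on it, against 8.78 to 9.47 on the other 3, and H2-Aa 9.87, against 7.70 to 8.30. Both were the highest values among all 30 arrays, as were those of H2-Eb1 (9.96), H2-Ab1 (8.34), Tap1 (a) (7.38), H2-K1 (b) (8.78) and H2-D1 (c) (6.54). H2-DMa (a), H2-K1 (c) and Tap1 (b) were the 3 members that did not exceed the group.

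Genes of other lists were read on that array too, where 21.0% of all probe sets were above its group and 30.1% below. Of macrophage and monocyte markers 14 of 16 were above the group, among them C1qb (8.84, against 7.51 to 7.75) and Lyz2 (8.57, against 7.30 to 7.51), and all 7 pan-leukocyte markers were. Of interferon genes 16 of 22 were above, with Igtp, an interferon-induced GTPase, at 7.52, against 5.44 to 5.76. Of the macrophage and interferon lists 0 and 2 were below. Endothelial markers were above in 6 of 8 and below in 1, and dendritic cell markers above in 3 of 7 and below in 0. B cell markers were above in 1 of 8 and below in 3. T and natural killer cell markers were above in 4 of 11 and below in 5, and cardiac muscle genes above in 0 of 9 and below in 3. The part of these in the member values was not tested.

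**Figure D3:**
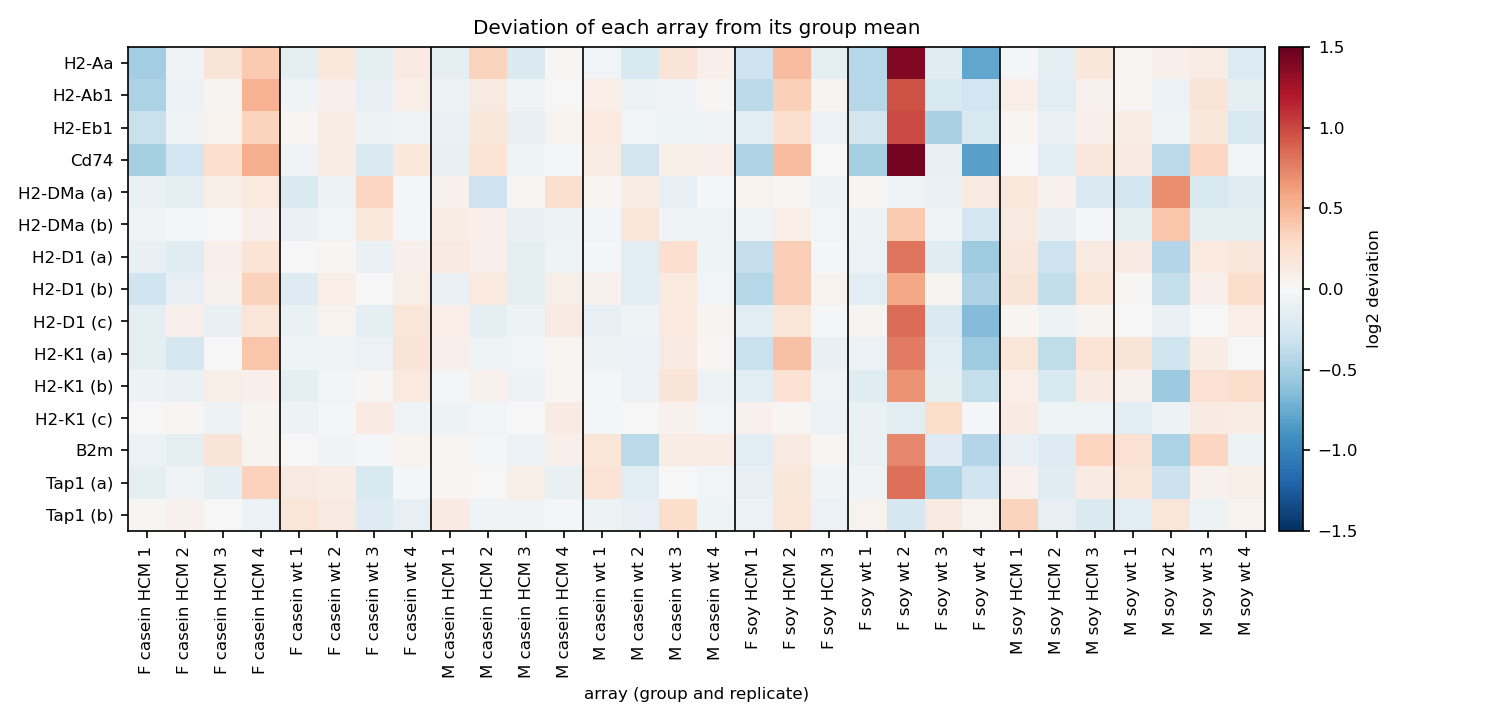
Each array's log2 deviation from its group mean for the 15 member probe sets (rows), with arrays in columns by group and replicate, red above and blue below the group mean. Female soy wild-type replicate 2 is the darkest red column, with Cd74 1.44 above its group mean, and the rows of H2-DMa (a), H2-K1 (c) and Tap1 (b) do not share its color.

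Within groups most members moved together from array to array. Over the deviations of the 30 arrays from their group means, pairs among H2-Aa, H2-Ab1, H2-Eb1 and Cd74 had Pearson r between 0.87 and 0.94. Without the 2 arrays farthest from the median of Cd74, female soy wild-type replicates 2 and 4, the range was 0.75 to 0.91. Pairs among B2m, Tap1 (a) and the 4 brighter probe sets of H2-K1 and H2-D1 had r of 0.69 to 0.94, and of 0.53 to 0.89 without those arrays. Pairs between the classes had 0.65 to 0.89, and 0.36 to 0.82 without them. Arrays share normalization and family probes, so these are descriptions.

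The genes most like Cd74 by this measure, members aside, were H2-Q4, a class Ib heavy chain (r 0.91, rho 0.85, and r 0.81 without the 2 arrays), Irgm2, an interferon-induced GTPase (0.88, 0.70 and 0.73), and H2-Bl (0.87, 0.75 and 0.76). The probe sets of H2-Q4 and H2-Bl here carry the suffix f, so they may also read RNA of the member heavy chains. Psmb8, an immunoproteasome subunit (0.84, 0.74 and 0.65), and Ctss, the protease cathepsin S (0.84, 0.74 and 0.66), came next. H2-Aa and H2-Ab1 were first and second of 10832 probe sets, whose median r with Cd74 was -0.02. H2-DMa, though part of the same pathway, had r of -0.27 (probe set a) and 0.39 (probe set b), the second falling to -0.12 without the 2 arrays.

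For B2m the most alike were Psmb8 (r 0.89, rho 0.83, and r 0.81 without its own 2 farthest arrays), Ifitm3, an interferon-induced membrane protein (0.84, 0.73 and 0.73), H2-Q4 (0.83, 0.79 and 0.73), C1qb, a complement chain made by macrophages (0.82, 0.71 and 0.65), and Mir686 (0.82, 0.74 and 0.77). The same H2-Q4 probe set with the suffix f was used here. Over the 8 group means, B2m was most like Gbp2 (r 0.99), Gbp3 (0.98), both guanylate-binding proteins induced by interferon, and Tubb2a, a beta tubulin (0.98). Cd74 was most like Selenow (0.96), F11r (0.95) and Ahcy (0.94) over the group means.

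The other genes of antigen processing and presentation were taken from a list of 46, of which 33 had a probe set of their own. In HCM against wild type on casein, 13 were higher and 4 lower, where 25.0% of all probe sets were higher and 24.0% lower, with a median of 0.05, against -0.00 over all. Psmb8 (0.98 ± 0.14, SE), Psmb9 (0.73 ± 0.12) and Psmb10 (0.71 ± 0.07), the 3 inducible catalytic subunits of the immunoproteasome, were all higher. Ctss, the protease that trims the invariant chain, was higher by 0.95 ± 0.16 and H2-Q4 by 0.69 ± 0.13. Since H2-Q4 has a probe set with the suffix f, its value may include RNA of the member heavy chains. Among the 4 lower ones were Canx, the chaperone calnexin that holds new heavy chains (-0.69 ± 0.06), and H2-Oa and H2-Ob, the 2 chains of the DO inhibitor of DM (-0.18 and -0.15); these 3 were picked after their values were seen.

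Ciita, the transactivator that class II genes need, was chosen here after its value was seen; it did not pass on casein (0.04 ± 0.05) and was lower on soy (-0.19 ± 0.06). With a random block for array set, 9 of the list were higher and 2 lower on casein, where 27.3% of all probe sets passed. On soy Ciita missed the threshold with both soy wild-type arrays numbered 2 left out (-0.16, adjusted p 0.06).

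On soy, 2 of the 33 were higher in HCM and 5 lower, where 24.7% of all probe sets passed, with a median of -0.08, against -0.01 over all. Tap2, the partner of Tap1 in the transporter, was lower (-0.48 ± 0.11, SE; adjusted p 0.00206), as were H2-Ea (-0.40 ± 0.12), Psme1, a subunit of the proteasome activator (-0.37 ± 0.10), and Ifi30, a lysosomal thiol reductase (-0.32 ± 0.08). H2-Ea, a class II alpha chain, is not transcribed in mice of the b haplotype such as C57BL/6, so its probe set may read other RNA. On male soy wild-type replicate 2 it read 6.38, against 5.30 to 5.54 on the rest of that group. H2-M3, which presents formylated peptides, was higher (0.27 ± 0.07). Without female soy wild-type replicate 2 the counts were 1 higher and 5 lower, where 22.7% of all probe sets passed. They were also 1 and 5 without male replicate 2 (23.5%), and 1 and 4 without both (22.2%). With a random block for array set none passed on soy.

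Tap2 was higher by 0.41 ± 0.10 in HCM on casein, with an interaction of 0.89 ± 0.15 (adjusted p 2.12e-05 by limma). On male soy wild-type replicate 2 it read 7.88, the highest of all 30 arrays, against 6.96 to 7.17 on the rest of that group. Without that array the difference on soy was -0.39 (adjusted p 0.00167 by limma) and the interaction 0.79 (adjusted p 2.15e-06). Over the list the interaction passed for 12 positive and 4 negative of 33, where 23.9% of all probe sets were positive and 21.3% negative. Psmb8 (1.19 ± 0.21) and Ctss (1.08 ± 0.24) were the largest.

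**Figure D4:**
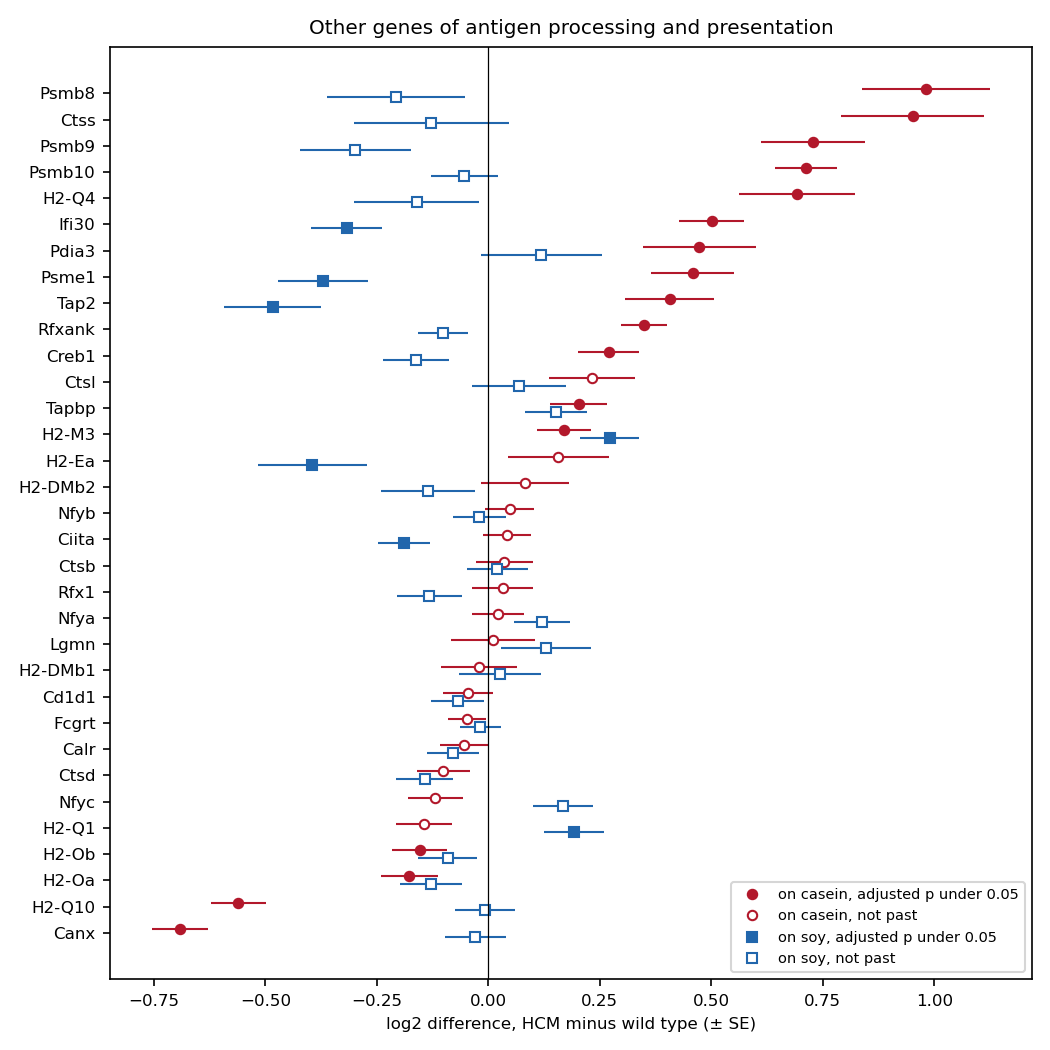
Log2 difference of HCM minus wild type with its SE for the 33 measured genes of the list of other antigen processing and presentation genes, on casein (circles) and on soy (squares), ordered by the difference on casein; filled symbols have an adjusted p under 0.05. Psmb8 at 0.98 and Ctss at 0.95 stand at the top on casein and are below 0 on soy, where they did not pass.

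Interferon signalling genes were counted in the same way. On casein 16 of 22 measured were higher in HCM and none was lower, where 25.0% and 24.0% of all probe sets were, with a median of 0.34. Ifit3 (2.00 ± 0.08, SE), Isg15 (1.76 ± 0.12), Ifit2 (1.5 ± 0.09), Ifit1 (1.46 ± 0.11) and Irf7 (1.11 ± 0.09), all induced by type I interferon, changed most. Ifng, interferon gamma itself, chosen here after its value was seen, did not pass (0.03 ± 0.04). On soy 1 was higher (Ifit3, 0.35 ± 0.08) and 1 lower (Tyk2, a Janus kinase, -0.26 ± 0.07), where 24.7% of all probe sets passed, and the interaction passed for 14 of 22, all positive, where 45.2% passed. Without female soy wild-type replicate 2 the soy counts became 5 higher and 1 lower, where 22.7% of all probe sets passed. They were 1 and 2 without male replicate 2 (23.5%), and 4 and 2 without both (22.2%). With a random block for array set none passed on soy and 6 interactions did, where 2.76% and 21.1% of all probe sets passed.

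Markers of cells that carry MHC molecules were read beside these results. In HCM against wild type on casein, 6 of 16 macrophage and monocyte markers were higher and 4 lower, where 25.0% and 24.0% of all probe sets were. Lyz2 (0.73 ± 0.17, SE), C1qb (0.58 ± 0.16), Aif1 (0.49 ± 0.10), Fcgr1 (0.46 ± 0.08) and C1qa (0.35) changed most. The mean level of the 16 was 6.88 to 7.05 in female and 6.79 to 6.97 in male HCM hearts on casein, against 6.73 to 6.83 in female and 6.73 to 6.79 in male wild-type hearts.

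Of 7 pan-leukocyte markers 3 were higher and none lower: Cd52 (0.53 ± 0.08, SE), Coro1a (0.27 ± 0.07) and Ptprc (0.23 ± 0.09). Their mean level was 6.32 to 6.51 in female and 6.29 to 6.39 in male HCM hearts on casein, and 6.2 to 6.32 and 6.13 to 6.34 in female and male wild-type hearts. B cell markers had 2 higher and 1 lower of 8, T and natural killer cell markers 3 and 2 of 11, and dendritic cell markers 0 and 1 of 7. Endothelial markers, of cells that also make class I, had 0 higher and 4 lower of 8, with Eng at -0.68 ± 0.08. The part of any of these cell types in the member differences was not tested.

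On soy, where 1 member passed, 0 of 16 macrophage markers were higher in HCM and 1 lower (Fcgr1, -0.29 ± 0.09, SE), where 24.7% of all probe sets passed. Of pan-leukocyte markers 0 were higher and 2 lower, Coro1a (-0.62 ± 0.08) and Laptm5 (-0.27 ± 0.09). Without female soy wild-type replicate 2 the lower counts were 1 of 16 and 1 of 7. They were 2 and 2 without male replicate 2, and 1 and 2 without both. None was higher in any of these fits, where 22.7%, 23.5% and 22.2% of all probe sets passed. The tissue itself read as labelled, with cardiac muscle genes such as Myl2 and Myh6 at mean levels of 13.39 and 12.58. Of the 9 cardiac genes 5 were higher and 2 lower in HCM on casein, and all 9 were higher on soy; Myh7, the slow myosin heavy chain, was higher by 1.30 ± 0.14 and 0.70 ± 0.15 on casein and on soy. Male soy wild-type replicate 2 had 8 of the 9 below its group, where 42.1% of all probe sets were. Without that array, alone or with female replicate 2, 7 of the 9 were higher on soy, and without the female array alone all 9 were. Of 8 endothelial markers 3 were higher and none lower on soy, with and without these arrays, and 7 of the 8 were below the group on the male array.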

How the data were processed

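RNA from 30 left ventricle samples was labelled and hybridised to Affymetrix MG_U74Av2 arrays. The values analysed are the deposited log2 expression values, 1 per probe set and array; RMA and Affymetrix Expression Console are named in the submitters' processing notes, with versions not given in the sources used here. The scanner files are not analysed here. Groups were taken from the sample labels. Of 12488 probe sets, 66 controls were left out and 12422 were tested, with no filter on low values. Gene symbols came from the platform annotation: 10833 probe sets had 1 symbol, 396 several and 1193 none.

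One coefficient was fitted for each of the 8 groups with limma 3.58.1 (lmFit and eBayes) in R 4.3.3, which gave 22 residual degrees of freedom. Comparisons were contrasts of group means, tested two-sided, with Benjamini-Hochberg adjustment over all probe sets in each and a threshold of 0.05. The random array-set block used duplicateCorrelation (statmod 1.5.0), with a consensus correlation of 0.179. Apart from casein wild type the array sets coincide with diet and genotype, so the block cannot remove differences between them. Error terms are SE for differences and SD for levels. Alternatives were another probe set choice, quantile normalization, centring, array weights, blocks, leaving out the dimmest 40%, and leaving out arrays.

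All member probe sets are named. From each list of pathway and marker genes up to 5 that changed most past the threshold were named, and likeness was ranked by Pearson correlation with Cd74 and B2m. The members and lists were chosen with earlier results of these data known.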

Additional observations from a re-analysis of the deposited data

Results flagged for a closer look

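In groups of 4 arrays, 11 of 90 tests had an array whose gap to its nearest neighbour exceeded Dixon's 95% critical value, where chance gives about 1 in 20. The tests read the same arrays with members that move together, so they are not independent, and 1 array can give several flags. The share over all probe sets was not counted. For H2-Ab1, female soy wild-type replicate 2 read 8.335, against 6.951 to 7.145 on the other 3. Male soy wild-type replicate 2 was apart at both H2-DMa probe sets, 8.773 (probe set a) and 8.351 (probe set b), as the highest, and at H2-D1 (a), 9.194, as the lowest. Male casein wild-type replicate 2 was apart for Cd74 (9.363) and B2m (10.248) as the lowest, and for H2-DMa (b) (7.783) as the highest. The others were H2-Eb1 on male casein wild-type replicate 1 (8.905), H2-K1 (a) on female casein wild-type replicate 4 (10.583), and Tap1 (b) on male casein HCM replicate 1 (5.34) and male casein wild-type replicate 3 (6.049).

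The HCM difference on casein differed from that on soy by the interaction test for 6 member probe sets. The interaction was 0.826 for H2-D1 (b), 0.794 for B2m, 0.555 for H2-K1 (a), 0.546 for H2-K1 (b), 0.528 for H2-Ab1 and -0.595 for Tap1 (b). These comparisons share the 8 casein HCM arrays, which are an array set of their own, and diet, genotype and array set cannot be told apart there.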

How the results depend on the processing

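Counts of the 15 member probe sets past the threshold moved as follows. With 1 probe set per gene (9 genes) the counts were 4 for HCM over both diets, 6 on casein, 0 on soy, 5 for casein over both genotypes, 1 in wild type, 5 in HCM and 3 for the genotype-by-diet interaction; fewer features were tested there, of which 25.0% (on soy) to 62.9% (casein over both genotypes) passed. With a random block for array set they were 3 for HCM over both diets, 0 on soy, 1 for casein in wild type and 3 for the interaction, where 9.61%, 2.76%, 25.1% and 21.1% of all probe sets passed. Quantile normalization gave 2 on soy and 6 for casein over both genotypes (25.8% and 60.7% of all), and array weights 3 on soy (41.9%). Without the casein HCM arrays, HCM was compared on soy alone and casein against soy in wild type alone. The counts there were 1 for HCM and 2 for casein (20.1% and 43.3% of all). H2-K1 (b), higher on casein by 0.23 over both genotypes, differed by -0.043 in wild type alone. Without casein wild-type replicates 1 and 2 the interaction count was 3 (43.9% of all). With both soy wild-type arrays numbered 2 left out, the counts were 11 for HCM over both diets and 4 on soy (34.4% and 22.2% of all). Leaving out 1 array at a time gave 7 to 11 for HCM over both diets, 9 to 11 on casein, 1 to 4 on soy, 9 to 11 for casein over both genotypes, 2 to 5 in wild type, 9 to 11 in HCM and 4 to 8 for the interaction. The shares of all probe sets that belong to these ranges are not given here. Counts for sex and its interactions were 0 under all these alternatives. Replicate numbers did not pair samples: of 99 pairs of arrays with the same number, deviations had a median correlation of -0.012 and 21 exceeded 0.1; with the replicate block the soy count was 2. Of 4500 member values with 1 array left out, 35 lost and 35 gained the threshold. Another 110 changed sign without being past it, and 0 did while past it. Of 1505 member values under the other alternatives, 58 lost and 28 gained the threshold. There 73 changed sign without being past it, and 1 changed sign where a fit was past it. Averaged over all arrays H2-K1 (c), Tap1 (b) and H2-D1 (c) stood at percentiles 48.2, 40.8 and 37.2 of level among all probe sets. Tap1 (a), at percentile 55.5, was little higher. The moderate signal of these probe sets limits what they can show.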
